A study of Mus musculus with 298 samples.

Results

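Ach1 and Ach2 are the identities of the mouse thoracic sympathetic ganglion that the labels' celltype identifier gives in 8 cells each. Their 16 cells were taken by that identifier from a series of 298 single cells, of which 193 were noradrenergic, 4 were glutamatergic and 85 were left unclassified. Every cell came from mice in which a Wnt1-Cre driver, active in the neural crest, was crossed to an R26R-Tomato reporter; no treatment is named. Dissociated cells were captured in medium-size microfluidic chips, only sites seen to hold a single healthy cell were kept, and polyadenylated RNA was sequenced after Tn5 fragmentation. The Ach1 cells came from 7 collections, a collection being all cells of a single labelled sex and age: 2 cells at postnatal day 31 (female) and 1 each at day 16 (female), day 29 (male), day 30 (female), day 30 (male), day 33 (female) and day 38 (male). The Ach2 cells came from 4 collections, with 1 cell at day 16 (female), 4 at day 29 (male), 1 at day 30 (female) and 2 at day 38 (male). Those 4 collections held both identities. The 193 noradrenergic cells, used as a reference range and in the fit, came from 10 collections, 85 of them from day 31 (female); 9 at day 11, 1 at day 20 and 4 at day 34, all labelled female, were of ages with no cholinergic cell. The labels name no animals, so cells of a collection may share an animal. Most Ach1 and Ach2 sums per collection are single cells, so their spread between cells and between collections cannot be told apart. P-values of the fit are set against a spread between such sums that rests mainly on the other identities. The labels also do not say how the identities were assigned, so a test between them describes the size of a difference against that spread and is no independent evidence of 2 cell types.

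Most sympathetic neurons release noradrenaline, which they make from tyrosine in a chain that starts with tyrosine hydroxylase (Th). A minority are cholinergic: they take up choline through Slc5a7, make acetylcholine with choline acetyltransferase (Chat), load it into vesicles through Slc18a3, and commonly carry vasoactive intestinal peptide (Vip). Cholinergic sympathetic neurons are known for supplying sweat glands and the periosteum, and in rodents many of them begin with a noradrenergic programme that is lost as they mature. Somatostatin (Sst) is an inhibitory peptide hormone also made by several kinds of neurons.

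The 250 bases before the RefSeq start of Sst, Slc5a7, Vip and Th (GRCm38.p6) are shown because the comparison turns on the RNA of these genes. Capitals mark the cyclic AMP response element TGACGTCA, a shorter TGACG outside it, and TATAAA. The first 2 were searched on both strands and TATAAA on the strand of the gene; TGACG lies within TGACGTCA.
Sst, chr16:23890845-23891094, minus strand: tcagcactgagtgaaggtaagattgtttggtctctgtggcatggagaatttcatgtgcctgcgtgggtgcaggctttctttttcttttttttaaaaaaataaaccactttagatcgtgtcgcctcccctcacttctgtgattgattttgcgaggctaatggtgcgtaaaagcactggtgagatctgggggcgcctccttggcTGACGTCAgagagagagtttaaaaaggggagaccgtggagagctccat
Th, chr7:142899996-142900245, minus strand: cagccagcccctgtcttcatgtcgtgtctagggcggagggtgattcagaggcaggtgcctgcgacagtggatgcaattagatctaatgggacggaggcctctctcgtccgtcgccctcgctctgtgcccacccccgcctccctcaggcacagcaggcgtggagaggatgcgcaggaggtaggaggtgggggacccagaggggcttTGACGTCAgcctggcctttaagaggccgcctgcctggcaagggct
Vip, chr10:5638968-5639217, plus strand: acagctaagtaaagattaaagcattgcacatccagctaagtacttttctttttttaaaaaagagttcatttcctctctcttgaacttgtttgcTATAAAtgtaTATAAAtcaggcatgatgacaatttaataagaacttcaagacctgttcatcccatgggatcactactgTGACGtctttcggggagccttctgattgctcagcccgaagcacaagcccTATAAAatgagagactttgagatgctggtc
Slc5a7, chr17:54299035-54299284, minus strand: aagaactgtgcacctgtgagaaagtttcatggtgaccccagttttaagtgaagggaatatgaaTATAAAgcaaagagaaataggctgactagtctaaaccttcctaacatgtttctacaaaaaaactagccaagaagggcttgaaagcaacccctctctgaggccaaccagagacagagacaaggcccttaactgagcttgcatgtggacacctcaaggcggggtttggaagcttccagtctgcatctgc
The whole TGACGTCA lay in the Sst and Th windows, at -48 to -41 and at -45 to -38 from the start, and in 1.55% of 32851 promoters of that length. TGACG was found in the Vip window at -79 and in 17.8% of all promoters. TATAAA was found 3 times before Vip and once before Slc5a7, and in 7.59% of all promoters. These are matches of letters, not measured sites.

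Totals per cell ran from 13927 to 64428 counts in Ach1 (median 35670) and from 18890 to 51256 in Ach2 (median 28121). In the 4 collections with both identities the mean difference in log2 total, Ach1 minus Ach2, was 0.21 ± 0.24 (SD, n = 4), with Ach1 higher in 3 of 4 (exact two-sided sign-flip permutation test, p = 0.25, where 1 in 8 is the smallest possible). Levels below are counts per 10000 counts of the cell, and cells are numbered within an identity in the order of the deposit. Of the Ach1 cells 5 carry the label female, against 2 of the Ach2 cells. The 2 cells labelled female at day 16 held 4 counts each of the Y-linked gene Ddx3y and 0 of Xist, so the sex of that collection is in doubt.

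**Figure D1:**
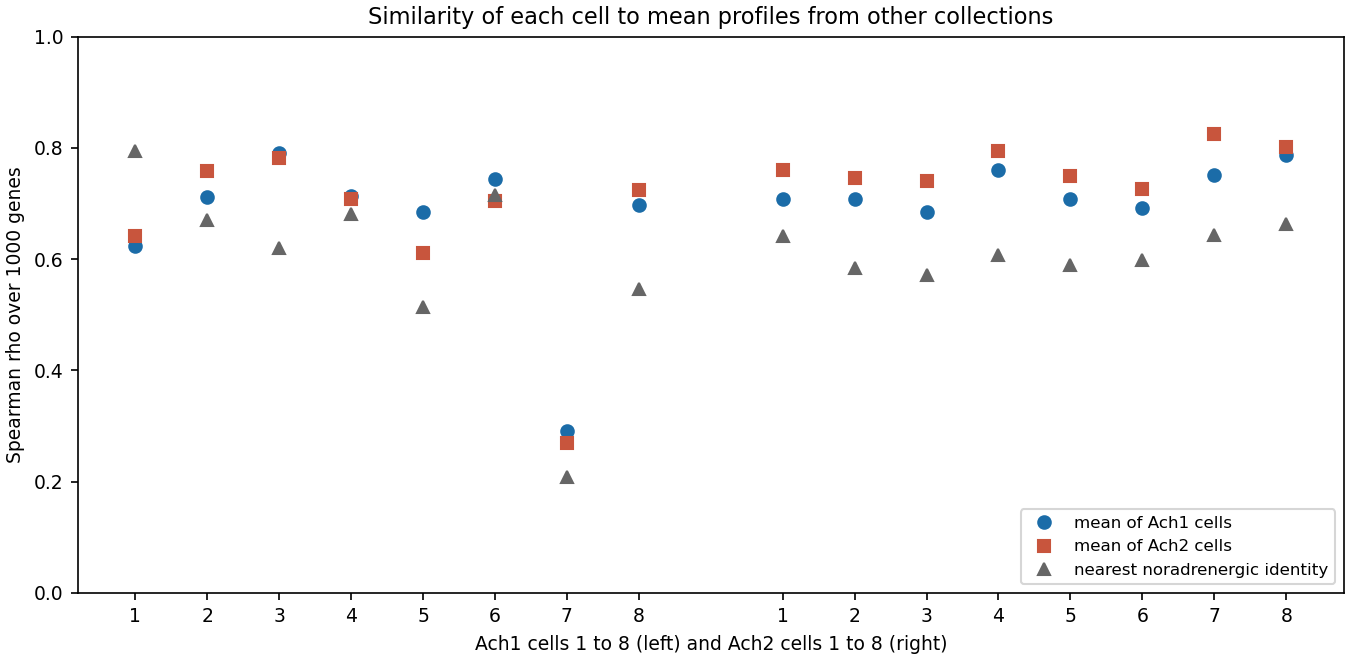
Each of the 16 cells (horizontal axis) with its Spearman correlation, over the 1000 most variable genes, to the mean profile of Ach1 cells, of Ach2 cells and of the nearest noradrenergic identity, all from other collections (vertical axis, no units). Ach1 cell 1 is nearest to a noradrenergic identity (0.794), and Ach1 cell 7 lies below 0.3 for all 3 profiles.

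Ach1 cells 1 and 7 stood apart from the other cells of their label. Ach1 cell 1 (day 31, female) correlated at 0.794 with the mean of Noradrenergic2, at 0.624 with Ach1 and at 0.642 with Ach2, when the profiles were taken from other collections. It held 586 counts of Npy, 61 of Th and 0 of both Chat and Slc18a3. With the 27 genes of the catecholamine, acetylcholine and neuropeptide lists that were among the 1000 left out, a check added after the values were seen, it was still nearest to Noradrenergic2, at 0.799. Ach1 cell 7 (day 30, male), the shallowest of the 16, reached 0.291 with Ach1. Its 20 genes of the mitochondrial respiratory chain summed to 35.2 per 10000, against 86.995 to 215 in the other 7 Ach1 cells. Ach1 cells 2 and 8 were nearer to Ach2 than to Ach1, with differences, Ach1 minus Ach2, of -0.0476 and -0.0261, whereas the Ach2 cells were nearest to their own identity in 8 of 8. The Ach1 profile held cell 1 for all cells outside its collection, and likewise cell 7. Profiles without cells 1 and 7 were not tried. Without cells 1 and 7 the fit called 17 genes, with 15 of the 16 called over all cells among them. C1qtnf7 lost its call (log2 fold change -3.29, adjusted p = 0.0904), Th (3.65) and Cartpt (2.34) remained without one, and Tmem255b and Serpine2 moved from -2.92 to -4.01 and from -2.54 to -3.21.

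Sst separated the 16 cells without overlap. The Ach1 cells held, from cell 1 to 8, 8, 3, 9, 0, 2, 0, 1 and 0 counts of it. The Ach2 cells held 88, 11, 7, 23, 119, 33, 71 and 71. Every Ach2 cell was higher than every Ach1 cell: the highest Ach1 level was 2.21 per 10000 in cell 3 and the lowest Ach2 level 3.71 in cell 3. Sst was the only 1 of 12646 genes with a count in any of the 16 cells whose levels did not overlap (0.00791%). The separation was not all-or-none, since 5 of 8 Ach1 cells had a count and Ach2 cells ranged from 3.71 to 42.0 per 10000, with a median 33.3-fold higher. In the fit over collections Sst was lower in Ach1 by a log2 fold change of -4.87 (SE 0.36, edgeR's quasi-likelihood test, Benjamini-Hochberg adjusted p = 1.19e-37). It was lower in Ach1 in 4 of 4 collections with both identities, and the fold change was -5.26 without Ach1 cells 1 and 7.

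**Figure D2:**
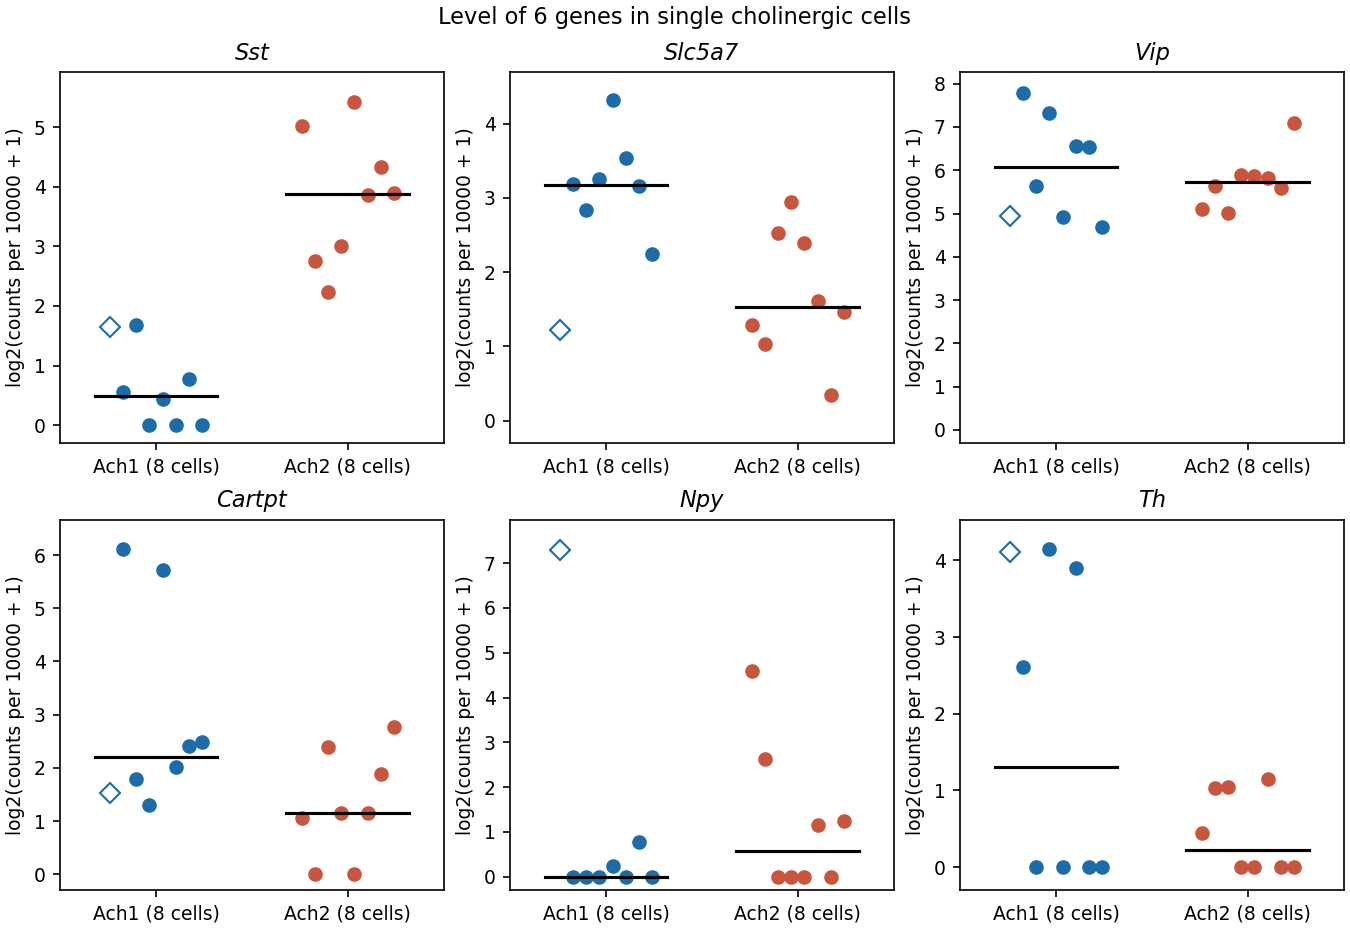
Level of Sst, Slc5a7, Vip, Cartpt, Npy and Th in each Ach1 and Ach2 cell, as log2 of counts per 10000 plus 1 (vertical axis); circles are cells, the open diamond is Ach1 cell 1, and bars are medians of the log2 values over 8 cells. The identities overlap in 5 of the 6 genes and not in Sst.

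The fit called 16 of 11555 genes between the identities (0.138%), 5 higher (0.0433%) and 11 lower (0.0952%) in Ach1. At an unadjusted p under 0.05 there were 856 (7.41%), 2.67% higher and 4.74% lower. Over all genes tested the median log2 fold change was -0.11 with the scaling used and 0.05 with DESeq2's size factors. The number of genes called ranged from 1, when every cell was thinned to 7225 counts, to 22, in the 4 collections with both identities alone. Leaving out 1 collection at a time gave 13 to 17, apart from 5 without the P38 male collection, which kept Sst, Fam122b, C1qtnf7, Tm4sf1 and Tmem255b. Sst was called in all 19 alternatives that were run, and none of the 15 other genes was. Over these alternatives (edgeR, DESeq2 or voom) the adjusted p of Sst ran from 5.56e-41 to 0.0494, so the weakest call barely passed. Its log2 fold change ran from -5.58 to -4.06.

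Of the genes that make and handle acetylcholine, 1 of 6 tested was called, Slc5a7, which was higher in Ach1. Its counts were 5, 52, 25, 29, 106, 35, 11 and 9 in Ach1 cells 1 to 8 and 4, 2, 9, 22, 12, 5, 1 and 9 in Ach2 cells 1 to 8. The gene was thus present in all 16 cells, and the levels overlapped: 1.34 to 18.9 per 10000 in Ach1 and 0.269 to 6.70 in Ach2. Only 1 Ach1 cell, the Npy-rich cell 1, fell under the Ach2 median of 1.90. The log2 fold change was 1.88 (SE 0.36, edgeR, adjusted p = 0.000958) and Ach1 was higher in 3 of 4 collections; at day 29 the Ach1 cell stood at 3.75 and the 4 Ach2 cells together at 4.53. DESeq2 and voom each called 0 of the 6 (adjusted p of 0.897 and 0.391 for Slc5a7). Its call was also lost with the stricter filterByExpr filter (0.220), without the collection as a term (0.465), with thinned cells (log2 fold change 1.31, adjusted p = 0.602), without the P30 female collection (1.36, adjusted p = 0.179) and without the P38 male collection (1.65, adjusted p = 0.0614), and held without cells 1 and 7 (1.90, adjusted p = 0.00471).

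Slc18a3, the vesicular acetylcholine transporter, did not pass the test. Its counts were 0, 10, 13, 6, 15, 3, 1 and 7 in Ach1 and 7, 8, 11, 12, 15, 3, 7 and 12 in Ach2, a log2 fold change of -0.32 (SE 0.45, adjusted p = 0.926). Within collections it was higher in Ach1 in 3 of 4, and lower at day 29, where the Ach1 cell stood at 2.92 per 10000 and the 4 Ach2 cells together at 4.64. Chat was sparse, with 0 to 5 counts in Ach1 and 0 to 2 in Ach2 cells; 2 Ach1 and 3 Ach2 cells had 0. Slc18a3 lies inside Chat on the same strand, so how reads were shared between them is uncertain. Ache, which breaks acetylcholine down, stood at 0.268 to 7.18 per 10000 in Ach1 and 0.609 to 5.02 in Ach2 (log2 fold change -0.47, SE 0.34). Colq, the collagen-like tail that anchors the esterase, had 22 counts in Ach1 cell 5 and 17 in the shallow cell 7, 7 or fewer in the other Ach1 cells and 3 or fewer in every Ach2 cell (log2 fold change 1.37, adjusted p = 0.595). Prima1, the membrane anchor of the same enzyme, had 5 counts over 4 Ach1 cells and 2 over 2 Ach2 cells. Bche, the related butyrylcholinesterase, had 2 counts in Ach1 cell 1 and 4 in 3 Ach2 cells.

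Vip was high in both identities. Counts were 112, 1422, 198, 543, 165, 310, 128 and 60 in Ach1 and 94, 93, 59, 192, 162, 135, 174 and 694 in Ach2. The levels, 25.0 to 221 per 10000 in Ach1 and 31.2 to 135 in Ach2, overlapped throughout, and the log2 fold change was 0.28 (SE 0.71, adjusted p = 0.992). The highest noradrenergic cell of 193 stood at 4.26, so Vip set all 16 cells apart from those cells, Ach1 cell 1 included (30.0). Slc5a7 overlapped, with up to 4.43 per 10000 in a noradrenergic cell, and 24 of the 193 had a count of it.

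Of 17 peptide and granin genes tested, 0 were called higher and 2 lower in Ach1, Sst and Chga. Chga, a chromogranin of dense-core vesicles, had 0, 1, 4, 3, 9, 4, 0 and 0 counts in Ach1 and 13, 1, 3, 10, 4, 37, 13 and 1 in Ach2, so that the cells overlapped (log2 fold change -2.03, SE 0.43, edgeR adjusted p = 0.00458). Without the P38 male collection, which holds the Ach2 cell with 37 counts, the log2 fold change was -1.28 (adjusted p = 0.693). Cartpt, the precursor of a feeding-related peptide, was uneven within Ach1: cells 2 and 5 held 438 and 291 counts and the other 6 held 5 to 11. Ach2 cells held 0 to 30. The log2 fold change of Cartpt was 2.25 (SE 0.77, adjusted p = 0.506). It was called with the 4 collections that hold both identities alone (1.81, adjusted p = 0.00358) and without the P31 female collection, which holds cell 2 (1.90, adjusted p = 0.00123).

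Npy, the peptide partner of noradrenaline, had 586 counts in Ach1 cell 1 and 0 or 1 in the other 7 Ach1 cells. In Ach2 it had 65, 10, 3 and 7 counts in cells 1, 2, 6 and 8 and 0 in the other 4. In the sums per collection Npy was lower in Ach1 in 4 of 4 collections with both identities, while cell 1 alone put the Ach1 mean at 8.35 ± 21.7 (SD, n = 7) against 6.54 ± 11.2 in Ach2 (SD, n = 4). The pituitary adenylate cyclase-activating peptide gene Adcyap1 had 10 counts over 4 Ach1 cells and 0 in Ach2, at least 2.63-fold higher against 3 counts over the group, and did not pass the test (adjusted p = 0.374). Calca and Calcb, close copies that share sequence, had 14 and 13 counts in Ach1 cell 2, 40 and 12 in Ach2 cell 8, 0 and 15 in Ach2 cell 5, and 0 of both in Ach1 cells 6 and 8.

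Catecholamine genes were still present in both identities, unevenly from cell to cell. Of 14 tested, 0 were called by edgeR, 2 had an unadjusted p under 0.05 (Th higher and Maoa lower in Ach1), and 0 were called by DESeq2 or by voom. Th, the rate-limiting enzyme, had 61, 33, 0, 57, 0, 46, 0 and 0 counts in Ach1 cells 1 to 8. Ach2 cells had 1, 2, 2, 0, 0, 3, 0 and 0. Ach1 cells thus held either 33 or more counts or 0, with nothing between, and no Ach2 cell exceeded 3. The 0 counts were not limited to shallow cells: Ach1 cell 5, with 56210 counts in all, had 0, which allows up to 0.534 per 10000 (counting error only). The 4 cells with Th were from the P31 female, P38 male and P33 female collections. The Ach1 cells with 0 were from the P16 female, P29 male, P30 female and P30 male collections. No collection held Ach1 cells of both kinds. The split thus ran along collection and age, so differences between cells, collections and ages cannot be told apart in it. In the fit the log2 fold change was 3.75 (SE 1.25, adjusted p = 0.479). Among the collections with both identities Ach1 was higher only in the P38 male, where the Ach1 cell stood at 16.8 per 10000 and the 2 Ach2 cells at 0.487.

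**Figure D3:**
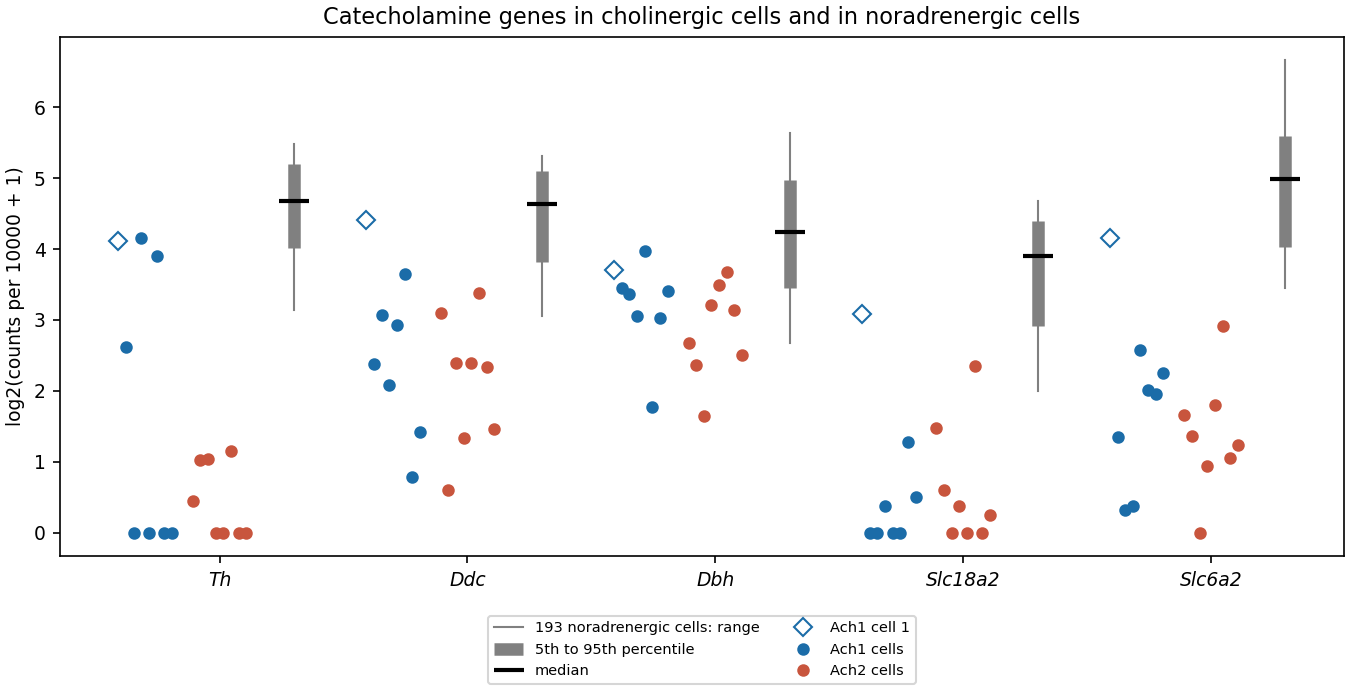
Level of 5 catecholamine genes in Ach1 and Ach2 cells (circles; open diamond, Ach1 cell 1) beside the 193 noradrenergic cells (thin line, range; thick bar, 5th to 95th percentile; black mark, median), as log2 of counts per 10000 plus 1 (vertical axis). No cholinergic cell reaches the noradrenergic median of any of the 5 genes, and Dbh shows the most overlap.

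Ach1 cells 1, 4 and 6 reached the range of Th in the 193 noradrenergic cells (7.80 to 43.8 per 10000), at 16.3, 16.8 and 13.9. Cell 2, at 5.12, lay under every noradrenergic cell, as did the other 4 Ach1 and all 8 Ach2 cells. The next enzyme, Ddc, had a count in all 16 cells, from 0.718 to 20.3 per 10000 in Ach1 and from 0.522 to 9.40 in Ach2, and 3 Ach1 and 2 Ach2 cells reached the lowest noradrenergic level of 7.34. Dbh, which makes noradrenaline from dopamine, reached the noradrenergic range in more of the 16 cells than the other 4 genes shown in the plot of noradrenergic ranges. Its counts were 45, 64, 38, 25, 83, 8, 10 and 23 in Ach1 and 15, 8, 4, 27, 29, 29, 29 and 24 in Ach2. In level that was 2.42 to 14.8 per 10000 in Ach1 and 2.12 to 11.8 in Ach2, and 7 Ach1 and 4 Ach2 cells reached the noradrenergic range, though none its median of 17.97. The log2 fold changes were 0.31 for both Ddc (SE 0.37) and Dbh (SE 0.34), and both had adjusted p-values of 0.877 or above.

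The transporters were mostly low. Slc18a2, which loads monoamines into vesicles, had 28 counts in Ach1 cell 1, 10 in Ach2 cell 6, 5 in Ach2 cell 1 and 2 or fewer in the other 13 cells. Slc6a2, the noradrenaline uptake transporter, had 63, 10, 1, 1, 28, 10, 4 and 9 counts in Ach1 and 6, 3, 0, 3, 7, 16, 4 and 7 in Ach2. Only Ach1 cell 1, at 16.9 per 10000, reached the noradrenergic range, which began at 9.94. Their log2 fold changes were -0.02 (SE 0.73) and 0.57 (SE 0.43).

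Taken as the sum of Th, Ddc, Dbh, Slc18a2 and Slc6a2, the cells ran from 7.41 to 73.1 per 10000. Ach1 cell 1, at 73.1, was above 11 of the 193 noradrenergic cells and at or above their 5th percentile in all 5 genes. The other 15 cells lay between 7.41 and 33.1, all under the lowest noradrenergic cell at 55.8. The highest of those 15 was Ach2 cell 6 at 33.1, followed by Ach1 cells 6, 4 and 5 at 30.9, 27.96 and 26.3. The make-up of the sum differed between cells of like totals. Ach1 cell 4 had 57 counts of Th, 11 of Ddc and 25 of Dbh, cell 5 had 0, 37 and 83, and cell 6 had 46, 38 and 8. Ach2 cell 6 had 3, 23 and 29, with 10 of Slc18a2. Within Ach1 the cell with the most Dbh after scaling thus had no Th count, and a cell with high Th had the least Dbh. Over all Ach1 cells the levels overlapped. Dbh stood at 12.0, 9.93, 7.36 and 2.42 per 10000 in cells 1, 2, 4 and 6, which held Th. In cells 3, 5, 7 and 8, without Th, it stood at 9.33, 14.8, 7.18 and 9.58.

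Th needs the cofactor tetrahydrobiopterin, and monoamine oxidases break catecholamines down. Gch1, which starts synthesis of that cofactor, had 0 to 16 counts in Ach1 and 0 to 10 in Ach2. The later enzymes of that path, Pts and Spr, had 0 to 12 and 0 to 3 counts in Ach1 and 1 to 13 and 0 to 6 in Ach2. Qdpr, which recycles the cofactor, had 0 to 15 counts in Ach1 and 2 to 15 in Ach2, and was lower in Ach1 in 4 of 4 shared collections (log2 fold change -0.46, SE 0.39, adjusted p = 0.837). Maoa, a monoamine oxidase, was also lower in 4 of 4: Ach1 cells had 43, 6, 15, 11, 10, 8, 1 and 2 counts and Ach2 cells 23, 10, 3, 13, 15, 11, 27 and 10. Its log2 fold change was -0.92 (SE 0.36, adjusted p = 0.561). The related Maob had 26 counts in Ach1 cell 1 and 4 or fewer in the other 15 cells. Cyb561, which supplies electrons to Dbh in the vesicle, had 7 to 60 counts in Ach1 and 3 to 20 in Ach2. The second vesicular monoamine transporter, Slc18a1, had 3 counts in Ach1 cell 5 and 0 elsewhere, and the adrenaline enzyme Pnmt and the dopamine transporter Slc6a3 had 0 counts in all 16 cells.

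**Figure D4:**
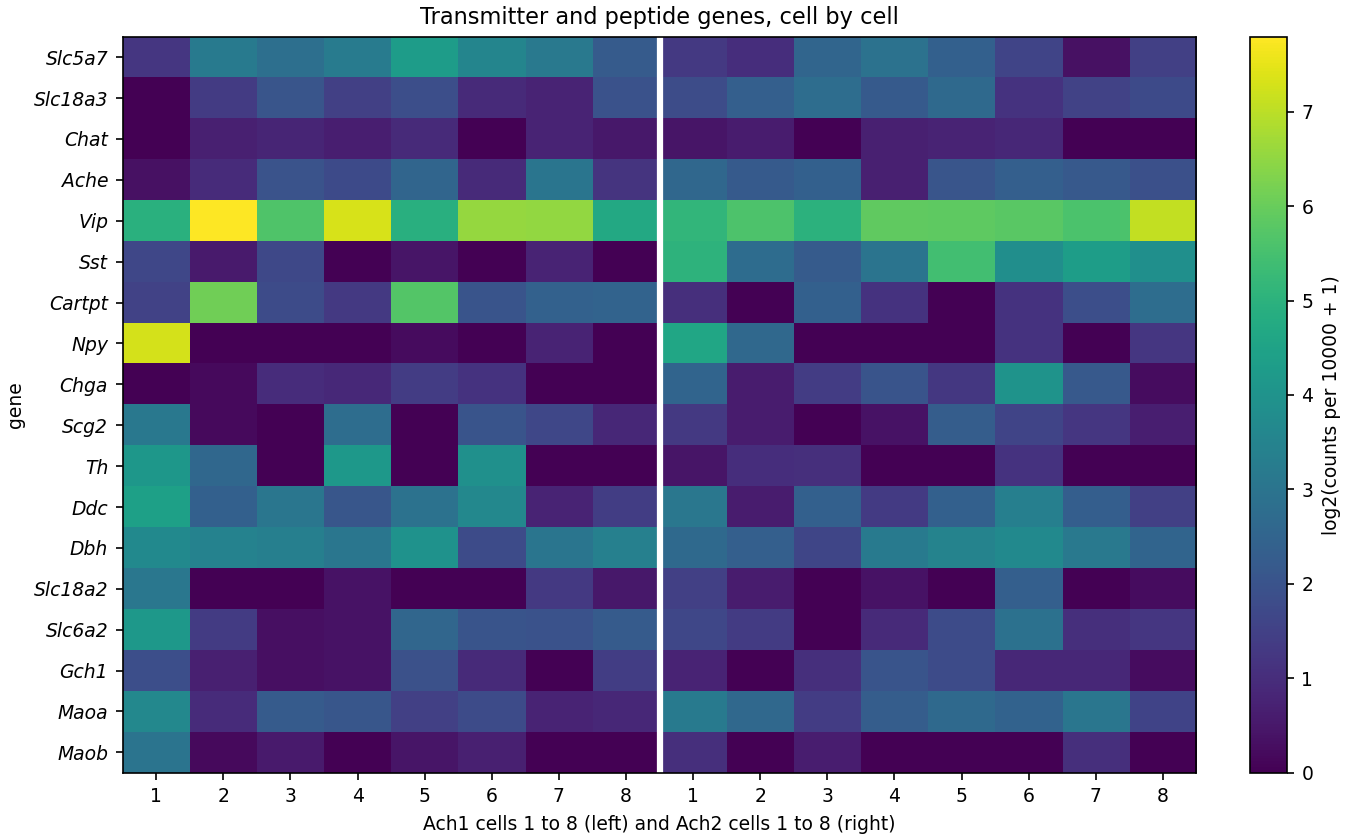
Genes of acetylcholine, peptides and catecholamines (rows) in the 8 Ach1 and 8 Ach2 cells (columns), coloured by log2 of counts per 10000 plus 1. Vip is high in every column, Sst changes between the blocks, and Ach1 cell 1 is the column with Npy, Th, Slc18a2, Slc6a2 and Maob together.

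Sst, Slc5a7 and Chga have been given, and the other 13 genes called were of mixed kinds. Of those higher in Ach1, Fam122b had 2, 33, 7, 21, 9, 6, 0 and 11 counts in Ach1 and 2, 0, 0, 0, 0, 0, 2 and 1 in Ach2, with a fitted log2 fold change of 3.75 (SE 0.62; adjusted p = 7.12e-06 by edgeR). Ach1 stood higher in 4 of 4 collections. Cells 1 and 7 are the Ach1 cells that overlap with Ach2, so the lack of overlap without them follows from leaving them out. The call of Fam122b was lost with DESeq2, with the chip as block and with thinned cells. Fam122b lies on the X chromosome. Kcnip4, a potassium channel partner, had 30 counts in Ach1, 20 of them in cell 4, and 2 in Ach2, a ratio of summed levels of 11.9 (95% exact interval 3.01 to 102.4, counting error only). Crtac1, a secreted matrix protein, had 24 counts in Ach1, 14 of them in cell 4 and 6 in cell 6, and 1 in Ach2, a ratio of 18.97 (3.09 to 780). Cx3cr1, the fractalkine receptor known from macrophages, had 6, 16 and 1 counts in Ach1 cells 2, 3 and 4 and 0 in the other 13 cells, at least 6.06-fold higher against 3 counts over the group. Its call was lost without the P16 female, P29 male, P31 female or P38 male collection, that of Crtac1 without the P29 male, P33 female or P38 male, and that of Kcnip4 without the P38 male. The other 11 of 12 macrophage markers were at 0 in all Ach1 cells, and 1 of them, Cd68, had 6 counts in Ach2.

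Of the genes lower in Ach1, Bex4, an X-linked gene of the brain-expressed family, overlapped in few cells. Ach1 cells had 1, 7, 2, 1, 7, 1, 0 and 5 counts and Ach2 cells 11, 9, 10, 11, 4, 11, 17 and 15, a median 10.6-fold higher in Ach2 (log2 fold change -2.28, SE 0.40, edgeR adjusted p = 4.52e-05). Ach2 cell 5, at 1.41 per 10000, was the single cell that overlapped, with Ach1 cell 8 at 2.08. Without the P38 male collection Bex4 had an adjusted p of 0.0614. Rhoc, a small GTPase, had 1 to 7 counts in Ach1 and 6 to 18 in Ach2, and Tm4sf1, a membrane protein of the tetraspanin kind, 0 to 36 and 13 to 65. H2-L, a class I histocompatibility gene with near-identical copies and so of uncertain counts, had 3 to 19 and 7 to 71. These 4 had medians 10.6-, 3.86-, 3.50- and 2.30-fold higher in Ach2, with levels that overlapped. Serpine2, a secreted protease inhibitor, was at 0 in 4 Ach1 cells and 1 Ach2 cell and had its most Ach1 counts, 7, in the shallow cell 7. Deptor, an inhibitory partner of the mTOR kinase, had 0 or 1 count in every Ach1 cell and up to 11 in Ach2. Tmem255b, a transmembrane protein, had 5 counts in Ach1 and 25 in Ach2. C1qtnf7, a secreted protein related to complement C1q, had up to 5 counts in Ach1 and 23 in Ach2. Leaving out 1 collection ended the call of each of these 8 genes except Tm4sf1 at least once: that of Rhoc for 6 of the 7 collections, of Serpine2 and Tmem255b for 3, of Deptor for 3, and of H2-L and C1qtnf7 for 2.

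Atf3, a transcription factor induced by stress and injury, had 4, 0, 3, 2, 5, 0, 1 and 13 counts in Ach1 and 22, 8, 8, 21, 7, 8, 4 and 11 in Ach2. Its log2 fold change was -1.68 (SE 0.39, edgeR adjusted p = 0.0208, and 0.459 without the P16 female collection). Atf3 lost its call in 13 of 19 alternatives, among them those without the P16 female, P31 female, P33 female or P38 male collection. It was the only gene called of 19 stress genes tested, which summed to 4.66 to 89.2 per 10000 in Ach1 and 20.1 to 53.3 in Ach2. Ach1 cell 8, with 79 counts of Fos, held the highest sum. The part of dissociation in these values was not tested.

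All-or-none genes were few and of low level. A gene was counted where at least 7 of 8 cells of an identity and at most 1 of 8 of the other had a count. That held for 12 of 12646 genes (0.0949%), 11 present in Ach1 and 1, Dbndd1, in Ach2, and 0 genes were present in 8 of 8 cells against 0 of 8. No cell held more than 7 counts of any of the 12. Prdm2, a zinc finger protein of the histone methyltransferase family, had 2, 3, 2, 3, 2, 1, 1 and 3 counts in Ach1 and 1 count in 1 Ach2 cell. Zfyve28 and Slc25a22, a mitochondrial glutamate carrier, also had a count in 8 of 8 Ach1 cells and in 1 of 8 Ach2 cells. Mum1, Ftsj3, Arid4a, Cog3, Ss18l1, Gstm6, Gipc1 and the calcium pump gene Atp2b3 had a count in 7 of 8 Ach1 cells, with 8 to 16 counts in all. Since Ach1 cells were deeper on the whole, each cell was thinned to 13927 counts; then 8 of 11356 genes met the rule (0.0704%), 3 in Ach1 and 5 in Ach2, and Prdm2 was the 1 gene in both counts. Asking for at least 6 cells against at most 2 gave 194 genes (1.53%), 155 in Ach1 and 39 in Ach2. With thinned cells it gave 144 (1.27%), 71 in Ach1 and 73 in Ach2, so the excess in Ach1 was not seen at equal totals. Leaving out Ach1 cell 1, cell 7 or both gave 21 (0.166%), 29 (0.229%) and 44 (0.348%) genes, where 1 missing cell was allowed among those left. Of these, 19, 28 and 42 were present in Ach1. These 3 settings were not thinned, cell 7 is the shallowest, and leaving out cells cannot lower the number under this rule. Of the 12, 0 were called by edgeR, 9 had an unadjusted p under 0.05, and DESeq2 and voom called 0 of them. The 12 were picked from the same cells for a difference between the identities, so low unadjusted p-values follow from the choice. The 5 genes of Ach2 after thinning, named after their values were seen, were Pagr1a, Rprm, Scn2b, Shox2 and Tmem242. Of these Shox2, a homeobox transcription factor, had 1 count each in Ach1 cells 2 and 3 and 2, 1, 0, 1, 5, 2, 5 and 5 counts in Ach2.

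**Figure D5:**
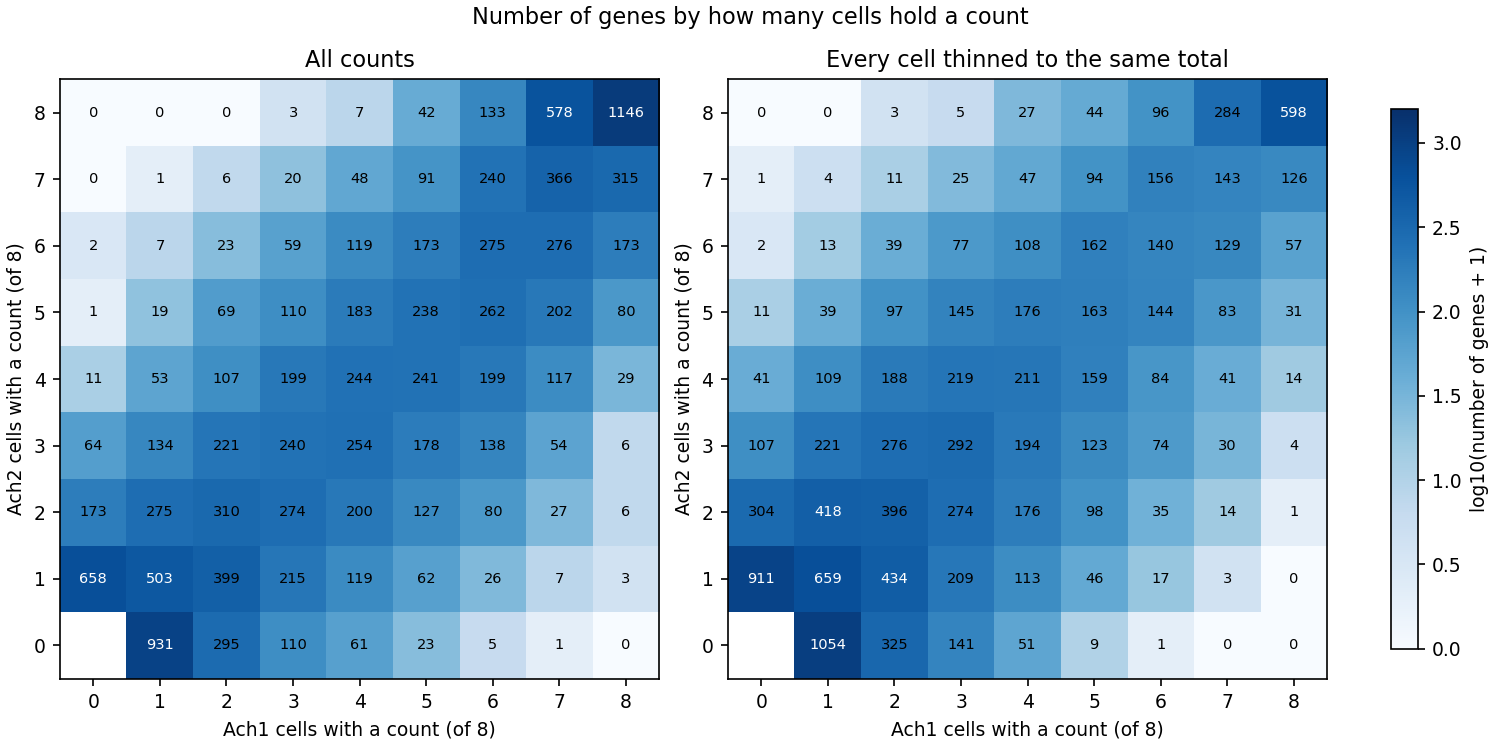
Number of genes by how many Ach1 cells (horizontal axis) and Ach2 cells (vertical axis) hold a count, with all counts (left) and with each cell thinned to 13927 counts (right); colour is log10 of the number plus 1, and the corner of genes with no count is blank. The off-diagonal corners are empty, with 0 genes at 8 of 8 cells against 0 of 8.

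Graded differences were counted in another set of genes, and their number moved with the fold asked for. Of 2405 genes with a count in at least 7 of 8 cells of both identities, 179 had medians at least 2-fold apart (7.44%), 56 higher in Ach1 and 123 higher in Ach2. Of the 2405, 21 passed 3-fold and 617 passed 1.5-fold. The cells of the identities overlapped in all 179. Of the 179, picked for a difference in the same cells, the fit called 5, Slc5a7 higher in Ach1 and Bex4, H2-L, Rhoc and Tm4sf1 lower. With Ach1 cell 7 left out, 237 of 2651 genes met the rule (8.94%), and 224 of 2707 (8.27%) with cells 1 and 7 left out. More genes thus had a count in enough cells to be considered. The number of genes whose levels did not overlap was 1 with all cells, 3 without cell 7 and 7 without both cells (0.0554%). Leaving out cells cannot lower this number, so a rise follows from the rule and is no result about the genes. The 7, named after their values were seen, were Sst and Gpx1, a glutathione peroxidase, higher in Ach2 and Ccdc88a, Ss18l1, Agk, Thy1 and Fam122b higher in Ach1.

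Within Ach1, 4 of 11737 genes were split between cells (0.0341%), with at least 10 counts in 2 to 6 cells and at most 1 in the rest: Th, Apoe, Sparc and Gda. At 20 counts Th alone remained (0.00852%), and all 4 were found again without cells 1 and 7. For Th the split ran along collection and age, as given above. Gda, guanine deaminase, had 26, 27, 56, 0, 47, 1, 11 and 16 counts in Ach1 and 23 to 60 in every Ach2 cell; the Ach1 cells without it were 4 and 6, of the 4 that held Th. Apoe, a lipid carrier, and Sparc, a matrix protein, were both at 0 in Ach1 cells 2 and 3 and held 13 or more counts in the other 6. Within Ach2, Apoe was the 1 split gene of 11220 (0.00891%), at 0 in cells 6 and 8 and 16 to 93 in the others.

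Apoe is also a satellite glia gene and belongs to the glial list. The glial sums below include it, so having 0 Apoe counts in itself lowers the sum of a cell. The sum without Apoe was not taken. The 4 cells with 0 Apoe counts had glial sums of 14.1, 27.8, 15.1 and 14.2 per 10000 (Ach1 cells 2 and 3, Ach2 cells 6 and 8), and the other 12 had 23.2 to 68.2. Ach1 cell 3 thus lay inside the range of the others, with 69 counts of the myelin gene Pmp22. The glial gene Fabp7 was at 0 or 1 count in Ach1 cells 2 and 3 and Ach2 cells 6 and 8, and had 8 to 51 counts in the other 12. All 15 glial genes had a count in Ach2 and 14 in Ach1, and they summed to 14.1 to 68.2 per 10000 in Ach1 and 14.2 to 54.0 in Ach2. Of 14 glial genes tested 0 were called, with 0 at an unadjusted p under 0.05 and 0 called by DESeq2 or voom. The part of glial RNA in the other differences was not tested. Fibroblast genes were at 4.31 per 10000 or less apart from Ach2 cell 6, where 43 counts of Dcn, a matrix proteoglycan, brought them to 19.2. Of 8 fibroblast genes tested 0 were called by edgeR or voom and 1, Col1a1, by DESeq2. At an unadjusted p under 0.05 edgeR gave 2, lower in Ach1, and the median log2 fold change of the 8 was -1.63. Endothelial genes were at most 1.06 and smooth muscle genes 0.409 per 10000.

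The other lists held few calls. Of 17 transcription factors of the sympathetic lineage tested 0 were called by edgeR, DESeq2 or voom, and 1 had an unadjusted p under 0.05: Tbx3, with 1 to 5 counts in 8 of 8 Ach1 cells and 5 counts in 2 of 8 Ach2 cells (log2 fold change 1.73, SE 0.73). Phox2a and Hand2, which drive noradrenergic genes, had counts in 8 and 7 Ach1 cells and in 7 and 8 Ach2 cells. Of 8 receptors for neurotrophic factors 0 were called by the 3 tools and 1 passed an unadjusted p of 0.05: Ngfr, the low-affinity neurotrophin receptor, with 2 to 80 counts in Ach1 and 0 to 12 in Ach2 (log2 fold change 1.26, SE 0.36, edgeR adjusted p = 0.219). Ret, the receptor of the GDNF family, had 6 to 80 and 7 to 21 counts. Of 7 genes of gp130 cytokine signalling, the pathway through which target tissues are known to turn sympathetic neurons cholinergic, 0 were called by the 3 tools and 0 had an unadjusted p under 0.05; Lifr, the leukaemia inhibitory factor receptor, had 5 to 14 counts in all Ach1 cells and 0 to 11 in Ach2 (log2 fold change 0.58, SE 0.42).

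Of 19 potassium channel genes Kcnip4 was the 1 called. Of 18 sodium, calcium and HCN channel genes 0 were called by the 3 tools and 1 had an unadjusted p under 0.05, Scn2b, a sodium channel subunit (log2 fold change -1.58, SE 0.55). Of 20 respiratory chain genes 0 were called by the 3 tools and 3, Cox7c, Cox6c and Atp5g3, had an unadjusted p under 0.05, lower in Ach1 by 0.74, 0.70 and 0.63 on the log2 scale, where cell 7 had 4 counts of Cox7c against 30 to 119 in the other Ach1 cells. Of 9 calcium-binding proteins 0 were called by the 3 tools; Vsnl1, visinin-like protein, was lowest in p, with 0 to 9 counts in Ach1 and 0 to 18 in Ach2 (log2 fold change -1.50, SE 0.47, adjusted p = 0.357).

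No unclassified cell met a rule set from the 16 cholinergic cells themselves, which does not show that no cholinergic cell is among the 85. A count of Slc18a3 and of Slc5a7 together with Vip at or above 25.0 per 10000, the lowest of the 16 cells, was met by 15 of the 16, by 0 of the 193 noradrenergic cells and by 0 of the 85 unclassified cells. The cholinergic cell that missed it was Ach1 cell 1, for want of a Slc18a3 count. All 16 cells meet the Vip cut by its definition. Among the 85 unclassified cells, 9 had a count of Slc5a7 (at most 10) and 7 of Slc18a3 (at most 2). Chat had a count in 4 of them (at most 2) and Vip in 19 (at most 94).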

How the data were processed

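RNA was counted in single cells; the deposited table holds whole-number counts per gene and cell (16892 genes, 298 cells), which the authors made on mm10, per the submitters' processing notes. The aligner, the counter, the annotation and any collapsing of molecules are not given in the sources used here. Cells were grouped by their labels. Members, lists and tests were chosen with earlier results of these data known.

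Counts of the cells of an identity were summed per collection (44 libraries of 8 identities, unclassified cells left out), with TMM scaling. The model, edgeR 4.0.16's robust quasi-likelihood, had terms for identity and collection. Genes with at least 20 counts and a count in 3 libraries were tested. A call is a Benjamini-Hochberg adjusted p under 0.05. The SE is the log2 fold change over the square root of F, so it restates the test. Most libraries of both identities are single cells, so the spread rests mainly on the other identities. DESeq2 1.42.0 and limma 3.58.1 (voom) were alternatives. On simulated data with known changes the fit was checked. Cell-by-cell rules are counts of genes with no test. Thinning drew counts without replacement, to 13927 per cell for the cell-by-cell rules. For the fit with thinned cells every named cell was thinned further, to 7225 counts.

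The text names Sst, Slc5a7, Vip and Th, the catecholamine and acetylcholine genes with a count, all genes called, all-or-none or split, and up to 4 members of lowest p from each other list; names outside this rule were chosen after their values were seen. Some genes the rule names are not reported here. Promoter windows are from RefSeq (GRCm38.p6), with 4 of 4 genes matched.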

Additional observations from a re-analysis of the deposited data

Results flagged for a closer look

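Levels of 26 genes in the sums per collection were screened for a collection far from the others of its identity by Dixon's test, in 49 sets of 4 or 7 collections, and 9 were flagged. Chance flags about 1 in 20 such sets, and most collections here are 1 cell. All values are counts per 10000.

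In Ach1, the P31 female collection, which holds cell 1, stood at 57.6 for Npy against 0.718 or less in the other 6. The P16 female collection stood at 8.84 for Tm4sf1 (1.07 to 4.41 in the others) and at 3.93 for Cx3cr1 (0.589 or less). The P30 male collection, which is the shallow cell 7, stood at 5.03 for Serpine2 (0.833 or less in the others) and at 0.718 for Deptor (0.246 or less), the latter being 1 count. The P29 male collection stood at 5.42 for Atf3 (0.890 or less), and the P38 male at 5.89 for Kcnip4 (0.908 or less).

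In Ach2, the P30 female collection stood at 135 for Vip, against 33.7 to 51.0 in the other 3, and the P16 female at 23.3 for Npy, against 0.487 to 1.37.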

How the results depend on the processing

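The count of 16 genes called became 5 with DESeq2, 7 with voom, 3 with edgeR's filterByExpr, 7 with the chip as block, 6 with the libraries of both identities alone and 1 with thinned cells. Without the replicate block, that is with identity as the only term, it was 5; the collection, shared by libraries of different identities, was the block. Leaving out each collection gave 5 to 17. The 12 all-or-none genes became 0 at 8 of 8 against 0 of 8, 194 at 6 against 2, 21 without Ach1 cell 1, 29 without cell 7 and 44 without both, the last 2 settings chosen after seeing the data. The 179 graded genes became 617 at 1.5-fold and 21 at 3-fold. The 4 genes split within Ach1 became 56 at 5 counts and 1 at 20, and the 1 within Ach2 became 19 and 0. Apart from these limits of the rules, the cause of the moves was not tested.

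Vip, never called, changed sign with voom (-0.29), with both identities alone (-0.27), with the 4 shared collections (-0.12), with thinned cells (-0.025) and without the P38 male collection; leaving out each collection gave -0.20 to 0.95. Among the 16 genes called, 0 changed sign in any of the 19 alternatives, and Sst alone was called in all. Thinned to 13927 counts per cell, 8 genes were all-or-none and Prdm2 alone was among the 12 found with all counts.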

Other observations

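How near each cell lay to the noradrenergic identities was set beside its Th counts, with the transmitter and peptide genes left out of the profile, after the values were seen. Over the 973 variable genes that remained without the 27 genes of the catecholamine, acetylcholine and neuropeptide lists, the correlation of a cell with its own identity minus that with the nearest noradrenergic identity was -0.158 in Ach1 cell 1 (61 counts of Th), -0.00191 in cell 2 (33), 0.00701 in cell 4 (57) and 0.00468 in cell 6 (46). In the Ach1 cells with 0 counts of Th it was 0.141 in cell 3, 0.141 in cell 5, 0.0596 in the shallow cell 7 and 0.127 in cell 8. In Ach2, where Th had 0 to 3 counts, it ran from 0.0979 to 0.159. These are single cells, 1 or 2 per collection in Ach1 and 1 to 4 in Ach2, and the correlations share the noradrenergic profiles. The Ach1 profile includes cell 1 for cells outside the P31 female collection and cell 7 for cells outside the P30 male collection. The Ach1 cells with Th were of day 31 or later and those without of day 30 or earlier. Th, age and collection thus cannot be told apart here.

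Within Ach1, cell 4 held 20 of the 30 counts of Kcnip4 and 14 of the 24 of Crtac1, and it lacked Gda, of which Ach2 cells held 23 to 60 counts. Cell 6 held 6 counts of Crtac1 and 1 of Gda. Cells 2 and 5, with the most Cartpt (438 and 291 counts), had 33 and 0 counts of Th.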
